A study of Mus musculus with 22 samples.

Results

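Fas, Tnfrsf1a, Tnfrsf1b, Tnfrsf12a, Tnfsf10, Tnfsf12, Casp8, Cflar, Bid and Mlkl are 10 genes of the death receptor and tumour necrosis factor (TNF) family pathway, followed here in the livers of mice given diclofenac. They were chosen by name, with earlier results of these data known. A probe set was counted to a gene where its annotation gives that gene's symbol and no other. This rule found 19 probe sets for 9 of the 10 genes, among 18194 genes with a probe set of their own on the array. Tnfsf12, the ligand TWEAK, has no probe set annotated to it alone and was not analysed here. Male C57BL6 mice aged 8 weeks received daily intraperitoneal injections of the non-steroidal anti-inflammatory drug diclofenac sodium at 30 mg/kg, or the matching volume of saline. The array set holds 3 diclofenac and 3 saline livers at day 1 (24 h), 3 and 3 at day 3, and 5 and 5 at day 14, with 1 Affymetrix Mouse 430 2.0 array for each of the 22 liver samples. Values are linear MAS5 signals, a brightness in arbitrary units that is compared between livers for 1 probe set and never between probe sets.

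Ligands of the TNF family bind as trimers to receptors of the TNF receptor family. Fas and TNFR1 (Tnfrsf1a) carry a death domain, through which an adaptor recruits caspase-8. TNFR1 also assembles a complex that activates NF-kB and survival genes. In hepatocytes active caspase-8 cleaves Bid, which then acts on mitochondria, while cFLIP (Cflar) competes with caspase-8 for the adaptor. Where caspase-8 is blocked, MLKL can break the plasma membrane, a death called necroptosis. The mouse liver is known for its sensitivity to Fas ligation.

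Signals had been scaled to 1 common trimmed mean, 500.0 on every array, and the array medians lay between 75.2 and 89.9. Arrays of 1 group correlated at 0.898 to 0.945. Hepatocyte markers were bright in every liver, with a summed signal of 7 genes between 314159 and 673898. RNA quality, as the log2 ratio between controls at the 3' and the 5' end, was 0.56 to 0.60 in diclofenac and 0.56 to 0.62 in saline livers at day 1, 0.76 to 0.95 in diclofenac and 0.74 to 0.83 in saline livers at day 3, and 0.69 to 0.81 in diclofenac and 0.55 to 0.71 in saline livers at day 14. The highest ratio, 0.95, was that of diclofenac day 3 replicate 3. The part of this ratio in the results was not tested, and fits without this liver are given below for Tnfrsf1a and Fas. Summed signals of 7 neutrophil genes were 21195 in diclofenac day 1 replicate 2 and 23510 in diclofenac day 14 replicate 3, against at most 2864 in any other liver, and the mean differences of the receptors, Mlkl, Bid and the named pathway genes are given with and without these livers. Most of each sum came from S100a8 and S100a9, at 11744.5 and 7632 in the liver of day 1 and 13001 and 7694 in that of day 14. The log2 signal of 18S control probe sets was 11.7 to 12.4 at day 1, 14.5 to 14.8 at day 3 and 15.1 to 16.1 at day 14, so that in levels the day and the handling of its arrays cannot be told apart.

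Tnfrsf1a and Fas, the death domain receptors among the members, rose with diclofenac. Averaged over the 3 days, Tnfrsf1a was 1.55-fold higher in diclofenac than in saline livers (log2 difference 0.63, standard error 0.13, adjusted p = 0.0125, limma) and Fas was 1.38-fold higher (0.46, standard error 0.12, adjusted p = 0.0443, limma). The call of Tnfrsf1a held with each of the 22 livers left out in turn, and that of Fas was lost in 16 of these 22 fits. These were 2 of the 9 members, while 1.68% of the 13340 genes tested passed in either direction and 1.24% passed as higher. The members were chosen with earlier results of these data known, so their share is no independent support. The 4 receptors had a median log2 difference of 0.55, the 9 members 0.30, and all genes tested -0.0050. Mlkl had a mean difference of 0.73 that did not pass (adjusted p = 0.0734, limma). No member passed as lower. On single days no member passed the adjusted test, where 0.00%, 0.202% and 0.00% of genes passed at days 1, 3 and 14 (limma). At an unadjusted p under 0.05 there were 4, 4 and 2 of the 9 members on these days, where 13.0%, 10.8% and 10.8% of genes were.

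**Figure D1:**
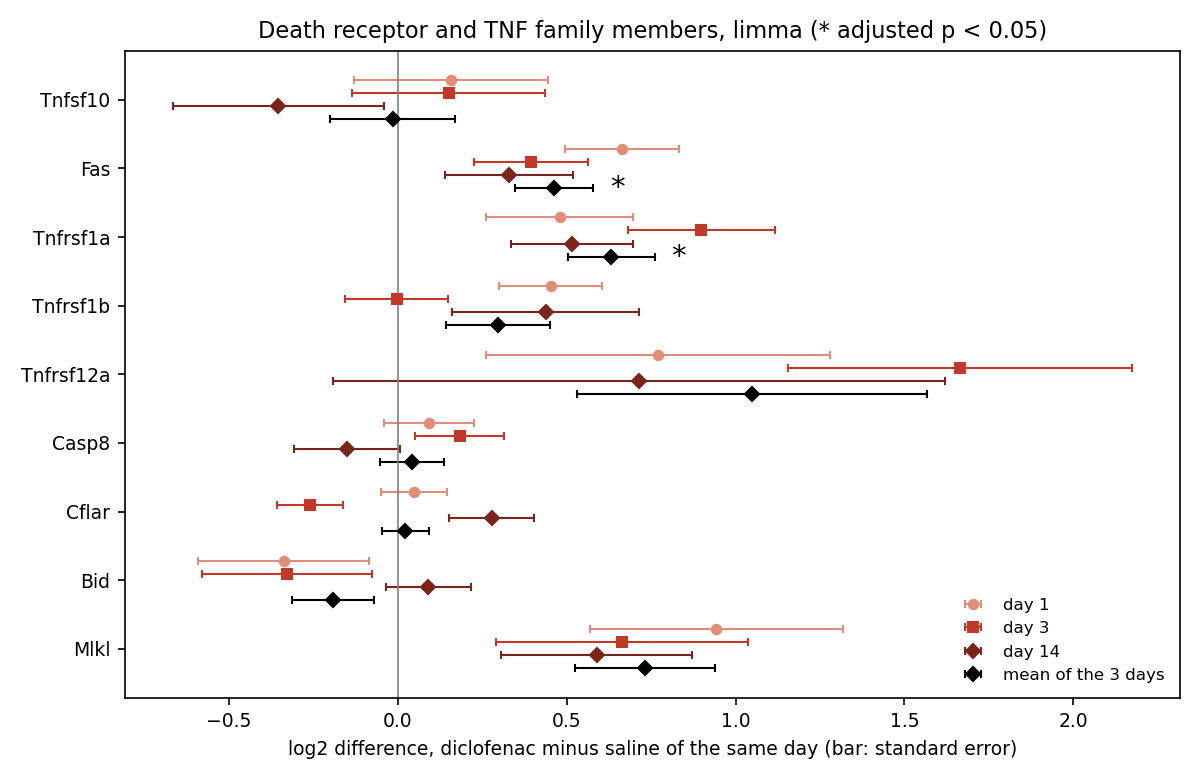
Log2 difference of diclofenac minus saline of the same day for the 9 members (rows), at days 1, 3 and 14 and as the mean of the 3 days, with standard errors from limma. Asterisks mark an adjusted p under 0.05, which only the 3-day means of Tnfrsf1a (0.63) and Fas (0.46, lost in 16 of 22 fits that leave out 1 liver) reached.

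Tnfsf10 encodes TRAIL, a ligand that can induce death through its own death receptor. The gene lies on chromosome 3 from 27317077 to 27339665 (positions are those of RefSeq on GRCm38). Its brightest probe set gave 228, 101 and 166 in diclofenac livers and 146, 147 and 127 in saline livers at day 1. At day 3 it gave 146, 139.5 and 151 in diclofenac livers, against 161, 123 and 113 in saline livers. At day 14 it gave 98.2, 90.1, 50.1, 129 and 82.9 in diclofenac livers, against 149, 123, 127, 110.2 and 62.7 in saline livers. The groups overlapped on every day, and the log2 differences were 0.16, 0.15 and -0.35 (adjusted p = 0.842, 0.892 and 0.691, limma). Its signal lay above the array's median in 8 of 10 livers of day 14 at its brightest probe set. All 3 probe sets were lower in diclofenac livers at day 14, none of them without overlap, as were 1.14% of all probe sets.

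Tnfrsf1a encodes TNFR1, the main receptor for soluble TNF, and lies on chromosome 6 from 125349723 to 125362483. At day 1 its signal was 2938, 5241 and 3001 in diclofenac livers, against 2421, 2491 and 2821 in saline livers. In the 6 livers of day 3 it was 5749.6, 5211 and 3378 in diclofenac livers, against 2549.8, 2572 and 2383 in saline livers. In the 10 livers of day 14 it was 3238, 2336, 4358, 2263 and 2259 in diclofenac livers, against 2171, 1723, 1860.0, 1890.2 and 2135 in saline livers. Every diclofenac liver lay above every saline liver of its day, on all 3 days, as did 0.427% of the genes tested. The group means were 3726 ± 1312 in diclofenac and 2578 ± 213 in saline livers at day 1 (SD, n = 3 each), 4779 ± 1243 in diclofenac and 2502 ± 103 in saline livers at day 3 (SD, n = 3 each), and 2891 ± 919 in diclofenac and 1956 ± 191 in saline livers at day 14 (SD, n = 5 each).

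On single days Tnfrsf1a did not pass, with log2 differences of 0.48, 0.90 and 0.52 at days 1, 3 and 14 (standard errors 0.22, 0.22 and 0.18, adjusted p = 0.379, 0.139 and 0.347, limma). The day 1 difference was 0.21 without diclofenac replicate 2. A two-sided exact permutation test gave p = 0.1 at days 1 and 3, the smallest that 3 against 3 livers allow, and 0.0079 at day 14, the smallest that 5 against 5 allow. Relabelling livers within days gave an exact permutation p of 1.98e-05 for the mean over the 3 days, also the smallest it can give. With single livers left out the mean difference was 0.54 to 0.71 (adjusted p 0.00365 to 0.0445, limma). Without both livers of high neutrophil signal it was 0.49 (adjusted p = 0.00411, limma). The day 3 difference passed without diclofenac day 3 replicate 3 (1.13, adjusted p = 0.0445, limma). It also passed without diclofenac day 1 replicate 2 (0.90, adjusted p = 0.0127, limma), a liver that enters it only through the spread shared by the 12 arrays of days 1 and 3.

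By level, Tnfrsf1a was highest in diclofenac livers of day 3 and lowest in saline livers of day 14. The order of mean log2 signal ran from 12.19 in diclofenac day 3, 11.81 in diclofenac day 1 and 11.45 in diclofenac day 14 to 11.33, 11.29 and 10.93 in saline of days 1, 3 and 14. Neighbours in this order overlapped except saline day 3 and saline day 14.

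Fas encodes the receptor of Fas ligand and lies on chromosome 19 from 34290647 to 34327775. In the 6 livers of day 1 its signal was 848, 1147 and 769.8 in diclofenac livers, against 572, 614 and 536 in saline livers. After 3 days it was 671, 689 and 492.6 in diclofenac livers, against 431, 472 and 492.4 in saline livers. After 14 days it was 1088, 1039, 899, 543 and 1183 in diclofenac livers, against 726, 711, 728, 838 and 659 in saline livers. The groups did not overlap at day 1, met within less than 1 signal unit at day 3, and overlapped at day 14 through diclofenac replicate 4, the lowest of the 10 livers. Without overlap and with diclofenac above lay 8.23%, 10.8% and 2.18% of genes at days 1, 3 and 14, and 2.71% on at least 2 of the 3 days.

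The mean signal of Fas was 921.6 ± 199 in diclofenac and 574 ± 38.6 in saline livers at day 1 (SD, n = 3 each), 618 ± 109 in diclofenac and 465 ± 31.2 in saline livers at day 3 (SD, n = 3 each), and 950.1 ± 249.6 in diclofenac and 732 ± 65.3 in saline livers at day 14 (SD, n = 5 each). By mean log2 level the order was diclofenac day 14, diclofenac day 1, saline day 14, diclofenac day 3, saline day 1 and saline day 3, and of the neighbours only the saline livers of days 1 and 3 did not overlap.

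Fas differed by 0.66, 0.39 and 0.33 on the log2 scale (SEs 0.17, 0.17 and 0.19, adjusted p = 0.238, 0.413 and 0.541, limma), and 10 of 11 diclofenac livers lay above the saline mean of their day. Two-sided exact permutation tests gave p = 0.1 at days 1 and 3 and 0.151 at day 14, and 0.00111 for the mean over days. The call of the mean was close to the threshold. It held with 6 livers left out singly (diclofenac day 1 replicates 1 and 3, diclofenac day 3 replicate 3, diclofenac day 14 replicates 3 and 4, saline day 14 replicate 4) and was lost without any 1 of the other 16 (adjusted p 0.0558 to 0.124, limma). Without both livers of high neutrophil signal the mean difference was 0.41 (adjusted p = 0.0681, limma). The call was also lost without a filter, with median centring and with a replicate block. It was lost too with the mean of all probe sets and with every probe set on its own. The day 1 difference was 0.50 without diclofenac replicate 2, and that of day 14 was 0.52 without diclofenac replicate 4.

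**Figure D2:**
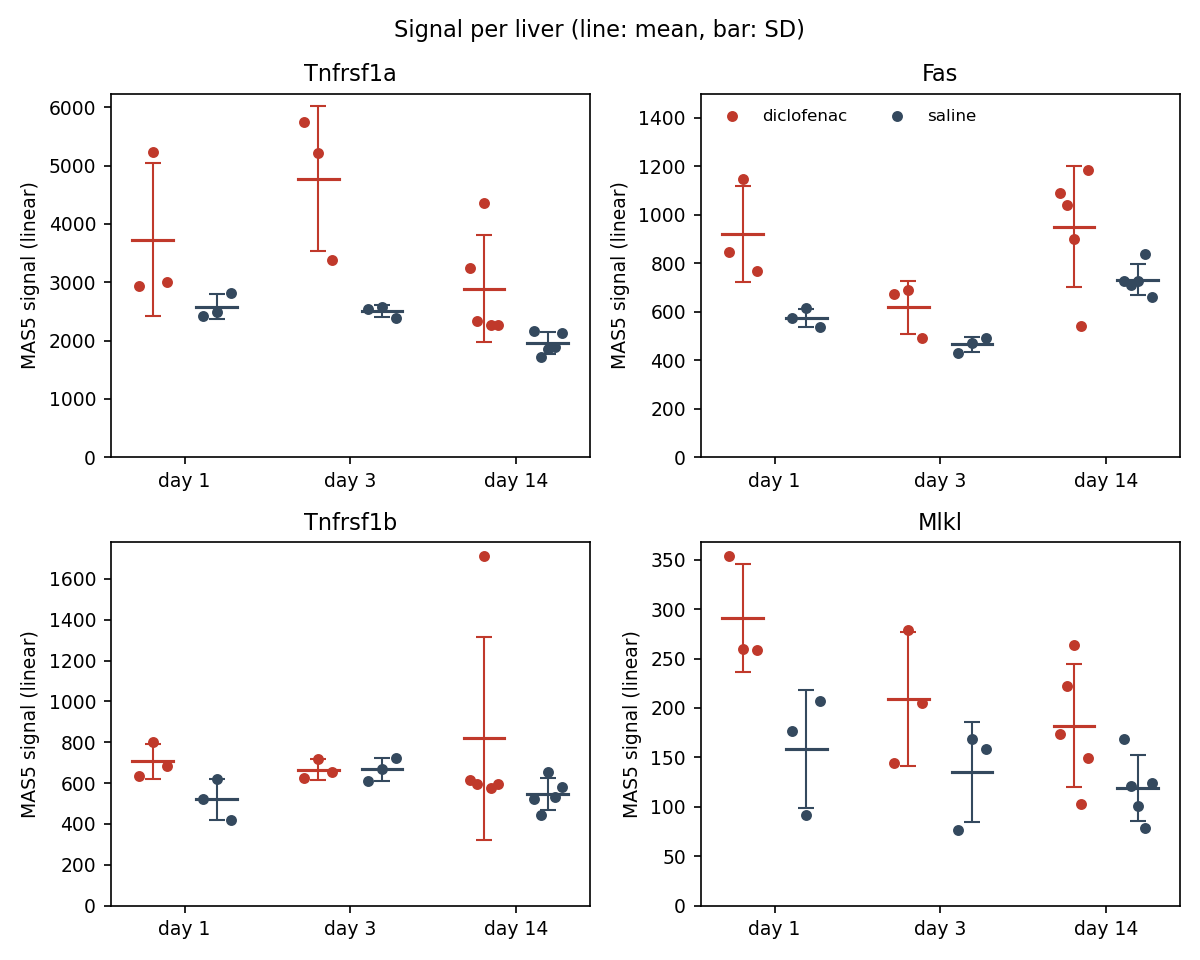
MAS5 signal (linear, arbitrary units) of Tnfrsf1a, Fas, Tnfrsf1b and Mlkl in each liver, diclofenac in red left of saline in dark blue for each day, with group means and SD. For Tnfrsf1a no saline liver reaches the lowest diclofenac liver of its day, while the high Tnfrsf1b point at day 14 (1711) is 1 liver.

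The promoters of these receptors are shown because Tnfrsf1a and Fas were the members that passed the test, with Tnfrsf1b as another receptor of the same ligand. Each is the 250 bases before the transcript start that the table of RefSeq promoters on GRCm38.p6 uses for the gene, read 5′ to 3′ on the gene's strand, and 9 of 9 measured members had an entry. They are chr19:34290409-34290658 on the plus strand for Fas, chr6:125349473-125349722 on the plus strand for Tnfrsf1a and chr4:145246871-145247120 on the minus strand for Tnfrsf1b. For Fas this start lies inside the gene span given above, so that the last 12 bases printed overlap the span, and the same holds over longer stretches for Bid, Casp8, Cflar and Mlkl, whose promoters were searched but are not printed. Capitals mark matches to the STAT motif TTCNNNGAA, the AP-1 motif TGANTCA and the interferon response element (GAAA, a pair of free bases, GAAA), searched on both strands.
Fas: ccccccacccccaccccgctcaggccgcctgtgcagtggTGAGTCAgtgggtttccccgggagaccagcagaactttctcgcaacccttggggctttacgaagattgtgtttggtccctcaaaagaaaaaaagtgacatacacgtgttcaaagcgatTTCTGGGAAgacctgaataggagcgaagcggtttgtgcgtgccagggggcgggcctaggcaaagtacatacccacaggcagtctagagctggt
Tnfrsf1a: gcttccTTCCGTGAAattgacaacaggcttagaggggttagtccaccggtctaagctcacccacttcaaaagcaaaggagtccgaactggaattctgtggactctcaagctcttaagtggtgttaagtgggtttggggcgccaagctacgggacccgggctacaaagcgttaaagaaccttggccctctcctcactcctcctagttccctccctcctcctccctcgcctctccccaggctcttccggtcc
Tnfrsf1b: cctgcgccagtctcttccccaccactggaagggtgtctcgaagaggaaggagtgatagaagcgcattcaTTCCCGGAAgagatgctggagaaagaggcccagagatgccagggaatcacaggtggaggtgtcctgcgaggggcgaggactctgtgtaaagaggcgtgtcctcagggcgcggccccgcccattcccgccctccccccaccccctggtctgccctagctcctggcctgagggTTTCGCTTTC

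Counted back from -1 at the last base before that start, the STAT motif lay at -93 in Fas (TTCTGGGAA), -244 in Tnfrsf1a (TTCCGTGAA) and -181 in Tnfrsf1b (TTCCCGGAA). No other member had a match, and 7.02% of 32851 promoters of this length have one. Fas alone held the AP-1 motif, found in 6.75% of promoters, and Tnfrsf1b alone the interferon response element, found in 2.98%. The kappaB motif, found in 7.25% of promoters, and the cyclic AMP response element TGACGTCA, found in 1.55%, matched none of the 9. The GC box GGGCGG, left in lower case above and found in 32.7% of promoters, was in Bid, Fas, Tnfrsf12a and Tnfrsf1b. No 2 motifs overlapped in the promoters printed. These matches describe the letters only.

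Tnfrsf1b encodes TNFR2, a TNF receptor with no death domain, and lies on chromosome 4 from 145212368 to 145246870. After 1 day its brighter probe set gave 637, 802 and 685 in diclofenac livers, against 523, 621 and 419 in saline livers. By day 3 it gave 624, 720.3 and 656 in diclofenac livers, against 613, 668 and 723 in saline livers. By day 14 it gave 617, 594, 1711, 578 and 594 in diclofenac livers, against 523, 446, 654, 531 and 582 in saline livers. The groups were apart at day 1, as were 8.23% of genes with diclofenac above, and overlapped at days 3 and 14. The log2 differences were 0.45, -0.0018 and 0.44 (adjusted p = 0.306, 0.999 and 0.583, limma), and their mean was 0.30 (adjusted p = 0.309, limma). Without diclofenac day 14 replicate 3 the day 14 difference was 0.13 and the mean 0.20 (adjusted p = 0.683 and 0.174, limma), and without both livers of high neutrophil signal the mean was 0.16 (adjusted p = 0.334, limma). The second, dimmer probe set differed by 0.34 at day 3 with the groups apart, as were 8.58% of all probe sets in that direction.

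Tnfrsf12a encodes Fn14, the receptor of TWEAK, which is known to rise in injured tissue. It lies on chromosome 17 from 23675445 to 23677449. On day 1 its brighter probe set gave 359, 1328 and 257 in diclofenac livers, against 218, 285 and 396 in saline livers. On day 3 it gave 1031, 998 and 491 in diclofenac livers, against 272, 172 and 340.4 in saline livers. On day 14 it gave 209.5, 49.4, 2789, 214 and 224 in diclofenac livers, against 59.1, 98.2, 150.1, 321 and 415 in saline livers. The groups were apart at day 3 alone, where 10.8% of genes were apart with diclofenac above. Of all members this gene varied most, 56.5-fold between its lowest and highest liver, both of them diclofenac livers of day 14.

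The log2 difference of Tnfrsf12a at day 3 was 1.66, or 3.17-fold (standard error 0.51, adjusted p = 0.249, limma), the largest of any member on any day. For days 1 and 14 the values were 0.77 and 0.72, neither past the test (adjusted p = 0.534 and 0.787, limma). The mean over the 3 days was 1.05 (standard error 0.52, adjusted p = 0.283, limma, exact permutation p = 0.0372). The day 1 difference was 0.06 without diclofenac day 1 replicate 2, and the day 14 difference was -0.13 without diclofenac day 14 replicate 3 (adjusted p = 0.986 and 0.954, limma). Without diclofenac day 1 replicate 2 the day 3 difference of 1.66 had an adjusted p of 0.0270 (limma). Without both of these livers the mean difference was 0.53 (adjusted p = 0.498, limma). The second probe set gave 879, 598 and 117 in diclofenac livers and 224, 113 and 111 in saline livers at day 3, a difference of 1.48 with overlap, and -0.67 at day 14. Its mean difference over the 3 days was 0.52 (exact permutation p = 0.436).

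**Figure D3:**
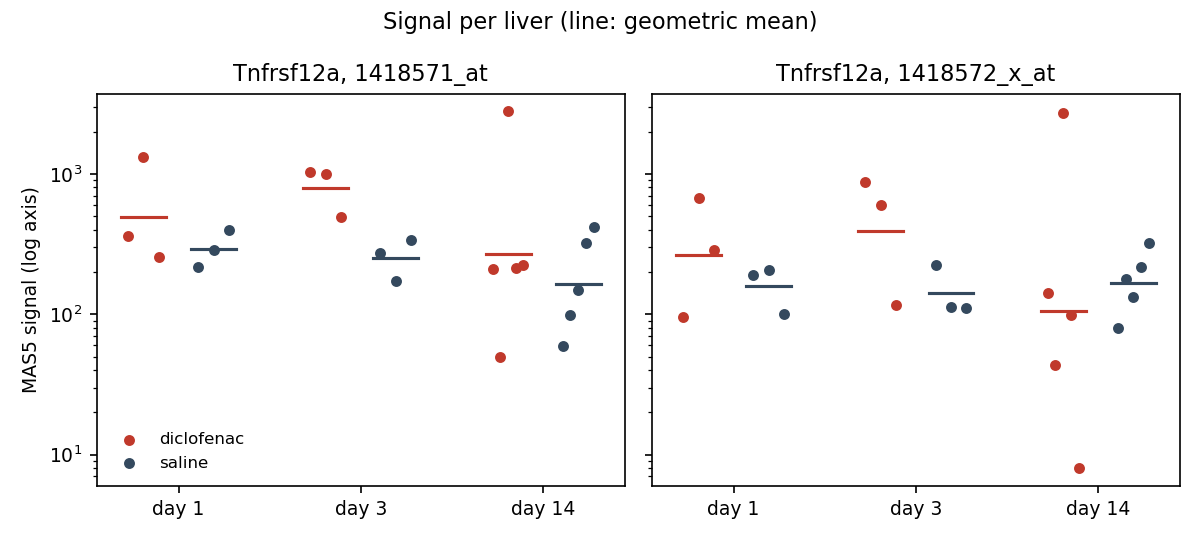
MAS5 signal of both Tnfrsf12a probe sets in each liver on a log axis, diclofenac in red left of saline in dark blue, with geometric means. The day 14 diclofenac group holds 1 liver at 2789 and 2712 on the 2 probe sets, and its other livers lie within or below the saline range.

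The livers that stood highest were partly the same for these receptors. Diclofenac day 1 replicate 2 had the highest signal of its group for Tnfrsf1a, Fas, Tnfrsf1b and Tnfrsf12a, and diclofenac day 14 replicate 3 for Tnfrsf1a, Tnfrsf1b, Tnfrsf12a and Mlkl but not Fas. Both were also the livers of high neutrophil signal, and replicate 3 of day 14 had the highest summed signal of 11 Kupffer cell and macrophage genes in its group, 41847 against 10128 to 15227 in the other diclofenac livers. It was also highest of its group in the summed signals of 4 cholangiocyte genes (2358 against 321 to 481, with Sox9 at 2099), 6 endothelial genes (9161 against 5388 to 5637), 6 stellate cell and fibroblast genes (13012 against 4369 to 8494) and 4 monocyte genes (6388 against 1507 to 2050.2). These 2 livers had the highest log2 signals of the hybridisation controls among the 22, 12.15 each. In diclofenac livers of day 3, replicate 3, the liver with the highest 3' to 5' ratio, was lowest for Tnfrsf1a, Fas and Tnfrsf12a.

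Most markers of macrophages and neutrophils had positive differences as well. Of 11 Kupffer cell and macrophage genes, 11 had a difference above 0 on each day, where 50.2%, 51.4% and 47.8% of genes did at days 1, 3 and 14, and 0 passed the adjusted test in the mean effect, where 1.68% of genes did (9 at an unadjusted p under 0.05, where 18.5% of genes were, limma). Their summed signal was 36000 to 51787 in diclofenac and 21405 to 34445 in saline livers at day 1, 29949 to 44123 in diclofenac and 26428 to 28656 in saline livers at day 3, and 10128 to 41847 in diclofenac and 5935 to 15275 in saline livers at day 14. Neutrophil genes summed to 1003 to 21195 in diclofenac and 596 to 975 in saline livers at day 1, 1794 to 2864 in diclofenac and 382 to 538 in saline livers at day 3, and 587 to 23510 in diclofenac and 294 to 473 in saline livers at day 14, and 2 of 5 tested passed in the mean effect. S100a8 and S100a9 weigh most in these sums. At day 3 the groups were apart for S100a8, S100a9, Cxcr2 and Elane and overlapped for Ngp, Camp and Mpo. On that day 10.8% of genes tested were apart with diclofenac above. Cxcr2 was dim, below the array's median in every liver of day 3. The monocyte sums were apart at day 3 alone, with 4520 to 5906 in diclofenac and 3406 to 3833 in saline livers, and overlapped at days 1 and 14. By gene, Lyz2 and Plac8 were apart at day 3, while Ccr2 and Itgam overlapped. Plac8 was also apart at day 1, with 1700 to 4223 in diclofenac and 756 to 1461 in saline livers. Stellate cell and fibroblast sums were apart at day 1, with 7989 to 9603 in diclofenac livers against 11681 to 14342 in saline livers. Dcn weighed most in these sums, at 5496 to 7317 in diclofenac and 8055 to 10011 in saline livers. By gene, Reln, Pdgfrb and Dcn were apart at day 1, while Lrat, Col1a1 and Des overlapped. Des was at 84.5 to 149 in diclofenac and 13.2 to 111 in saline livers. Cholangiocyte sums overlapped on every day and were 321 to 2358 in diclofenac and 249 to 334 in saline livers at day 14. Whole liver was measured, so more cells of a type and more RNA per cell cannot be told apart. No marker gene had a signal of 0 in any liver. The part of these cells in the receptor differences was not tested.

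Casp8 encodes caspase-8, the protease that death receptors activate, and lies on chromosome 1 from 58795233 to 58847503. At day 1 its signal was 2629.9, 2095 and 2217 in diclofenac livers, against 2089, 1993 and 2410.2 in saline livers. At day 3 it was 2805, 2597 and 2054 in diclofenac livers, against 1979, 2233 and 2312 in saline livers. At day 14 it was 2187, 1387, 1835, 1328 and 1822 in diclofenac livers, against 1716, 1802, 1539, 2164 and 2206 in saline livers. The groups overlapped on every day, and the log2 differences were 0.09, 0.18 and -0.15 (adjusted p = 0.791, 0.662 and 0.735, limma), with a mean of 0.04 (standard error 0.09, adjusted p = 0.843, limma).

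Cflar, which encodes the caspase-8 inhibitor cFLIP, lies beside Casp8 on chromosome 1, from 58711311 to 58758884. In the 6 livers of day 1 its brightest probe set gave 1598, 1722 and 1551 in diclofenac livers, against 1478, 1749.8 and 1492 in saline livers. In the 6 livers of day 3 it gave 1645, 1536 and 1554 in diclofenac livers, against 1791, 1913 and 1962 in saline livers. In the 10 livers of day 14 it gave 2712, 2236, 1938, 2411 and 2728 in diclofenac livers, against 1660.3, 2166, 1809.9, 2004 and 2261 in saline livers. Diclofenac livers were all below saline livers at day 3, as were 9.21% of genes, and overlapped with them at days 1 and 14.

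For Cflar the log2 difference was 0.05 at day 1, -0.26 at day 3 and 0.28 at day 14 (SEs 0.10, 0.10 and 0.12, adjusted p = 0.859, 0.337 and 0.455, limma), with a mean of 0.02. At day 3 all 5 probe sets were lower in diclofenac livers, with log2 differences of -0.20 to -0.85, and 3 of the 5 did so without overlap, where 7.25% of probe sets did. At day 14, 4 of the 5 were higher in diclofenac livers, none without overlap, where 1.30% of probe sets were. The difference between the day 14 effect and the mean of the earlier effects was 0.38 (standard error 0.14, unadjusted p = 0.0104, adjusted p = 0.644, limma), so it did not pass.

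**Figure D4:**
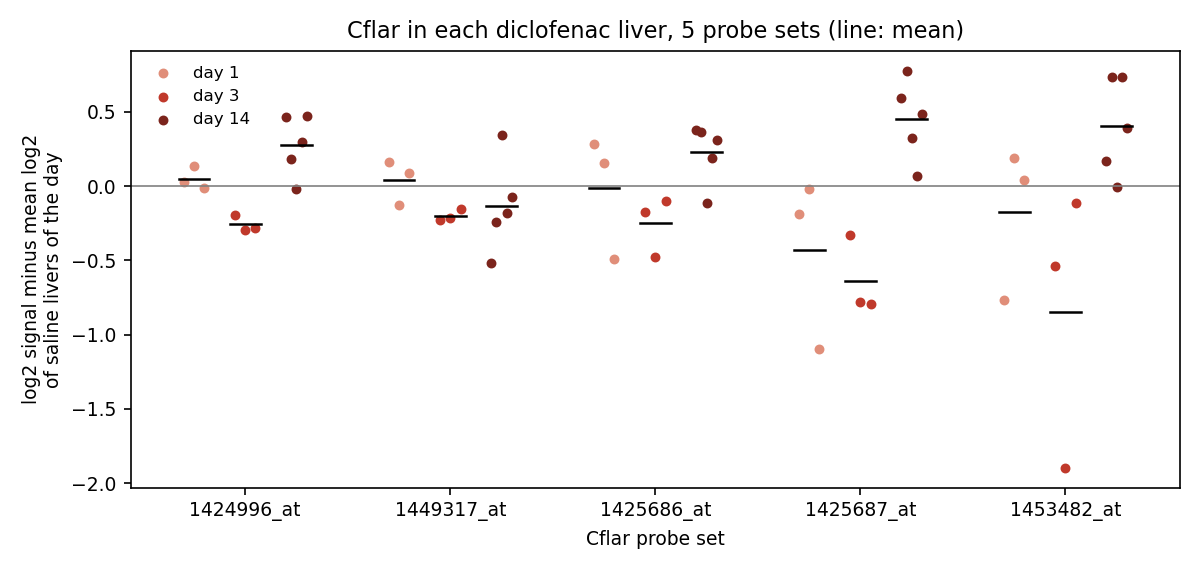
Log2 signal of each diclofenac liver minus the mean log2 signal of saline livers of its day, for the 5 Cflar probe sets, with group means as lines. All day 3 points lie below 0, and the day 14 means lie above 0 for 4 of the 5 probe sets.

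Bid encodes the BH3-only protein that caspase-8 cleaves, and lies on chromosome 6 from 120893119 to 120917062. After 1 day its brightest probe set gave 1037, 481 and 1065 in diclofenac livers, against 930.4, 1021 and 1128 in saline livers. After 3 days it gave 532, 651 and 780.0 in diclofenac livers, against 814, 867 and 754 in saline livers. After 14 days it gave 813, 825, 569, 703 and 764 in diclofenac livers, against 617, 765, 616, 679.9 and 756 in saline livers. The groups overlapped on every day, and the livers of high neutrophil signal were the lowest of their diclofenac groups (481 and 569). The log2 differences were -0.34, -0.33 and 0.09 (adjusted p = 0.586, 0.682 and 0.805, limma), and that of day 1 was 0.04 without diclofenac replicate 2. The mean difference was -0.19 (adjusted p = 0.410, limma), and -0.04 without both livers of high neutrophil signal. At day 3 all 3 probe sets were lower in diclofenac livers, 1 of them without overlap, where 7.25% of all probe sets were.

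Mlkl, the membrane-permeabilising effector of necroptosis, lies on chromosome 8 from 111311255 to 111338479. On day 1 its signal was 354, 259.9 and 259 in diclofenac livers, against 177, 91.4 and 208 in saline livers. By day 3 it was 144, 279 and 205 in diclofenac livers, against 77.1, 169 and 159 in saline livers. By day 14 it was 173, 222, 264, 103 and 149.9 in diclofenac livers, against 169, 121, 101, 78.5 and 124.5 in saline livers. The groups were apart at day 1, as were 8.23% of genes with diclofenac above, and overlapped at days 3 and 14. Mean signals were 290.9 ± 54.7 in diclofenac and 158 ± 60.2 in saline livers at day 1 (SD, n = 3 each), 209 ± 67.6 in diclofenac and 135 ± 50.4 in saline livers at day 3 (SD, n = 3 each), and 182 ± 62.6 in diclofenac and 119 ± 33.3 in saline livers at day 14 (SD, n = 5 each).

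Mlkl differed by 0.94, 0.66 and 0.59 (SEs 0.37, 0.37 and 0.28, adjusted p = 0.338, 0.543 and 0.486, limma), and 10 of 11 diclofenac livers lay above the saline mean of their day. The mean was 0.73, or 1.66-fold, with a standard error of 0.21 and an adjusted p of 0.0734 (limma, exact permutation p = 0.00188). Of the 22 fits with 1 liver left out it passed without diclofenac day 14 replicate 4 (0.80, adjusted p = 0.0398, limma) and not in the other 21, with the highest adjusted p, 0.165, without saline day 1 replicate 2. Without that saline liver, the lowest of its group, the day 1 difference was 0.59, and without saline day 3 replicate 1 the day 3 difference was 0.30. Without both livers of high neutrophil signal the mean was 0.71 (adjusted p = 0.0892, limma). Mlkl was dim, at 77.1 to 354, and lay above the array's median in 21 of 22 livers.

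The effects of the 3 days were not shown to differ for any member. The day 3 effect minus the day 1 effect ran from -0.46 in Tnfrsf1b to 0.89 in Tnfrsf12a, with adjusted p of 0.881 or above (limma), and 0 of 12884 genes passed (5.39% at an unadjusted p under 0.05). The day 14 effect minus the mean of the earlier effects ran from -0.51 in Tnfsf10 to 0.42 in Bid, with adjusted p of 0.644 or above (limma), where 0.0225% of genes passed.

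Elsewhere in the pathway 1 of 68 genes tested passed in the mean effect, where 1.68% of all genes tested did. Of 101 further genes in 6 lists, 88 had a probe set of their own, and 68 were bright enough to be tested over the 3 days. The median difference of these 68 was 0.04, against -0.0050 for all genes. The gene that passed was Tnfaip8l2 (TIPE2), known as a restraint on innate immune signalling. Its signal was 332, 318 and 268 in diclofenac livers and 175, 154 and 172 in saline livers at day 1, and 247, 240.0 and 153 in diclofenac livers against 161, 135.5 and 112 in saline livers at day 3. On day 14 it was 146, 167, 224, 144 and 136 in diclofenac livers, against 114, 94.2, 129, 55.5 and 54.5 in saline livers. The groups overlapped at day 3 only, where 2.71% of genes had diclofenac above without overlap on at least 2 of the 3 days. The mean log2 difference was 0.81 (standard error 0.16, adjusted p = 0.0119, limma) and 0.76 without both livers of high neutrophil signal (adjusted p = 0.0180, limma).

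Among other ligands of the family, 6 of 13 were tested, 0 passed and the median was -0.09. Tnf and Fasl, the ligands of Tnfrsf1a and Fas, were too dim to be tested. Tnf gave 7.06 to 52.6 in diclofenac and 9.31 to 71.4 in saline livers of days 1 and 3, and Fasl gave 24.3 to 62.6 in diclofenac and 21.3 to 61.1 in saline livers, with overlap on every day. Among other receptors 12 of 23 were tested, 0 passed and the median was 0.19. Ltbr, the lymphotoxin beta receptor, was named because its groups did not overlap on 2 days. Without overlap and with diclofenac above on at least 2 of the 3 days lay 2.71% of genes. It gave 2352, 3149 and 2393 in diclofenac livers and 2135, 2266 and 1962 in saline livers at day 1, and 2629, 2665 and 2088 in diclofenac livers against 1804, 2056 and 1827 in saline livers at day 3. At day 14 it gave 3086, 2498, 4299.98, 2548 and 2429.5 in diclofenac livers, against 2365, 2467, 2143, 2299.96 and 2412 in saline livers, and its mean difference was 0.33 (adjusted p = 0.0681, limma). The mean difference of Ltbr was 0.28 without diclofenac day 14 replicate 3 (adjusted p = 0.0192), 0.28 without diclofenac day 1 replicate 2 (adjusted p = 0.175) and 0.23 without both (adjusted p = 0.0400, limma).

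The adaptors, kinases and ubiquitin enzymes of the receptor complex and of necroptosis had 21 of 22 genes tested, 0 that passed and a median of 0.0034. Other caspases had 7 of 7 tested, 0 that passed and a median of 0.03. The BCL-2 family and mitochondrial death genes had 17 of 17 tested, 0 that passed and a median of -0.04. At an unadjusted p under 0.05 the counts in the mean effect were 1 ligand, 2 receptors, 5 complex genes, 1 caspase, 4 BCL-2 family genes and 3 of the 5 genes tested from the list named TNF-induced proteins (limma), where 18.5% of genes were. That list, chosen by gene name, holds Tnfaip8l2, a Tnfaip8-like gene, and had a median of 0.12. Induction of its genes by TNF was not tested.

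**Figure D5:**
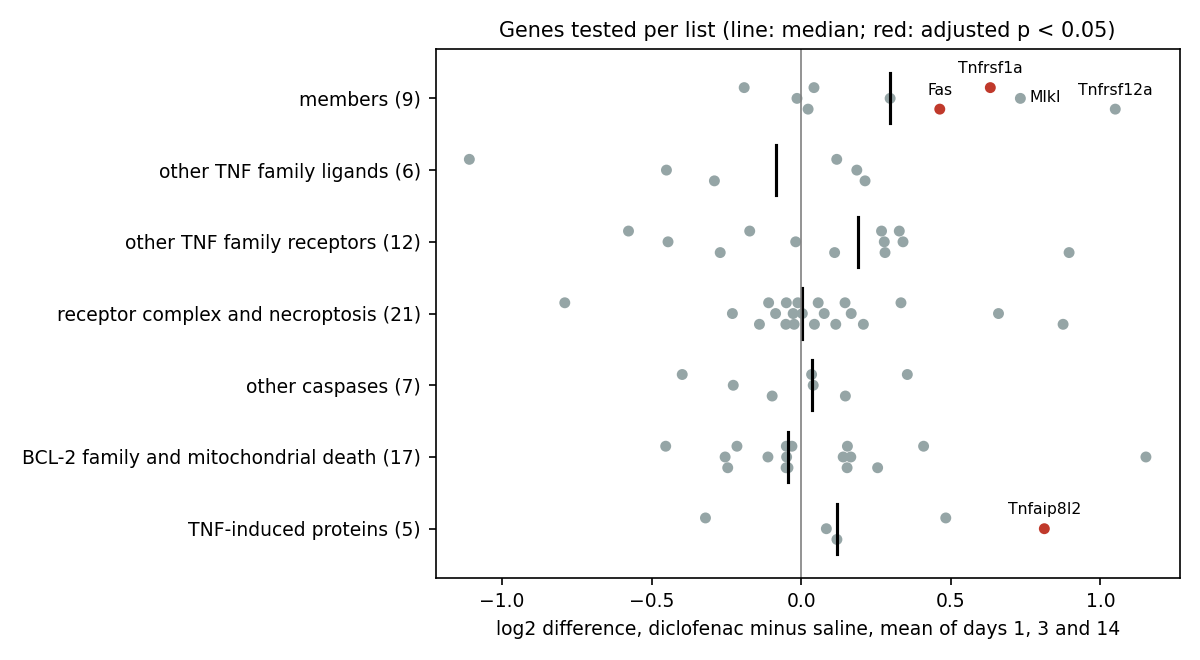
Mean log2 difference over days 1, 3 and 14 of every tested gene, for the members (top row) and 6 other pathway lists, with list medians as black lines and genes past an adjusted p of 0.05 in red. Tnfrsf1a (0.63) and Fas (0.46) among the members and Tnfaip8l2 (0.81) among the other lists are red.

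For the 3 members with the widest range, the genes of most similar signal were sought over 22 livers, after the saline mean of each day had been subtracted. Tnfrsf12a was most like Golga5 (Pearson r 0.89, Spearman rho 0.76), Akirin1 (0.88 and 0.72) and Arl1 (0.88 and 0.80), with r of 0.83, 0.82 and 0.78 in the 20 livers left without its 2 farthest. Mlkl was most like Was (r 0.81, rho 0.79), a gene of blood cells, Zc3h12d (0.79 and 0.81) and the macrophage gene Mpeg1 (0.79 and 0.79), with 0.80, 0.77 and 0.78 in 20 livers. Tnfsf10 was most like Pmel (r 0.82, rho 0.64), Appbp2os (0.80 and 0.73) and Rad51d (0.79 and 0.62), with 0.64, 0.60 and 0.55 in 20 livers. These genes were picked for their r among all genes tested, so no p is given, and the livers share treatment and array scaling.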

How the data were processed

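RNA of 22 whole livers was hybridised to Affymetrix Mouse 430 2.0 arrays. The deposited values are linear signal intensities that the authors computed by MAS5, all above 0 and scaled to a trimmed mean of 500.0 (2% left out at either end). The methods also name global median normalization. No detection calls or scan dates were used here. The labels state 5 mice per group and the methods 6, while 3 or 5 arrays per group are analysed here.

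Intensities were taken to log2 with no pseudocount. Of 45101 probe sets, 34958 carry 1 gene symbol, 932 several and 9211 none in GEO's platform annotation. Of a gene's probe sets the 1 with the highest mean log2 signal was used, which gave 18194 genes. Testing required a signal over the median of its own array on 3 or more arrays entering the fit, which all 9 measured members reached. The limma 3.58.1 fits (R 4.3.3, variance trend) took the 12 arrays of days 1 and 3, the 10 of day 14, or all 22 for the mean of the 3 same-day differences and for the day 14 effect against the earlier ones. Tests were two-sided, with Benjamini-Hochberg adjustment over all genes and a threshold of 0.05. Single genes also had exact permutation tests, over all splits of the livers of 1 day, or for the mean effect over relabellings within days (added after the data had been seen). The labels number separate liver samples without tying each to an animal, so p-values measure the spread between these samples, and the number of arrays limits the precision.

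The members and lists were chosen with earlier results of these data known. Every member is named. Genes of the other lists are named where they passed a test or did not overlap on at least 2 days, and Tnf and Fasl were named after their values were seen. The 3 genes most like each of the 3 widest-ranging members are named by their r. Genes of those lists with no probe set annotated to them alone were not analysed here. Promoters are from RefSeq on GRCm38.p6. Alternatives were other filters, scalings, probe set rules, array sets and weights, a pseudocount, a replicate term, the methods' t-test and leaving out each array. The scripts were tested on simulated data, and tables were made with Python 3.11.15, pandas 2.3.3 and numpy 2.4.6.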

Additional observations from a re-analysis of the deposited data

Results flagged for a closer look

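For 11 genes, the 9 members and 2 named genes of the other lists, both groups of 5 livers were searched for an outlying liver, 22 combinations of gene and group on the same 10 livers. A liver stood apart in 2 of the 22, and both are diclofenac day 14 replicate 3. The search used linear signals, and results on log2 are not given. Whether the usual chance rate of about 1 in 20 groups holds for linear signals was not tested. These combinations also share livers and are not independent. Its Tnfrsf1b signal was 1711, against 578 to 617 in the other diclofenac livers of day 14. Its Tnfrsf12a signal was 2789, against 49.4 to 224 in those livers. The same liver had the highest neutrophil (23510), macrophage (41847) and cholangiocyte (2358) marker sums of its group, and their part was not tested.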

How the results depend on the processing

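The higher mean level of Tnfrsf1a passed the test under every alternative run and with each liver left out (0.54 to 0.71). That of Fas was lost when arrays were centred on their median (adjusted p = 0.0572), without a filter (0.0549), with the mean of all probe sets (0.0517) and with every probe set on its own (0.0534, limma), so that 1 member passed in the mean effect under each of the first 3 settings, and 1 without both livers of high neutrophil signal, chosen after seeing the data. Leaving out each liver gave 1 to 3 members in the mean effect and 0 to 2 at day 3. Tnfrsf1a and Tnfrsf12a passed at day 3 when each day was fitted on its own arrays (2 members, adjusted p = 0.0419 each), and Tnfrsf1a with array weights (1 member, 0.0157, limma).

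Genes past the test at day 3 were 26, and 17 with quantile normalization, 16 with no filter, 13 with the mean of probe sets, 1 with all 22 arrays in one model, 145 with each day alone, 156 with array weights and 0 with the methods' t-test after Benjamini-Hochberg, which at its own thresholds called 321 genes and 1 member, Tnfrsf12a. At day 14 they were 0, and 3 with quantile normalization, 15 with median centring, 2 with the array median added, 133 with 22 arrays and 109 with weights. In the mean effect they were 224, and 484 with weights and 365 without both livers. For the day 14 effect minus the earlier ones they were 3, and 1 with quantile normalization and 0 with median centring. Leaving out each liver gave 0 to 5 genes at day 1 (5 without saline replicate 3), 0 to 177 at day 3 (177 without diclofenac day 1 replicate 2, 0 without saline replicate 3 or diclofenac replicate 1), 0 to 121 at day 14 (121 without diclofenac replicate 3) and 107 to 537 in the mean effect (107 without diclofenac day 3 replicate 1, 537 without diclofenac day 14 replicate 3). The causes were not tested.

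Replicate numbers were not used to pair the livers in the main fits. The deviations of livers with the same number correlated over 0.1 in 1 of 11 pairs (-0.156 to 0.127). With so few livers per group this cannot exclude a pairing. A replicate block gave 6 genes at day 3, 1 at day 14 and adjusted p of 0.0311 for Tnfrsf1a, 0.0989 for Fas and 0.0454 for Mlkl in the mean effect (limma).

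Signs that turned were of differences that had not passed. At day 1 single probe sets gave -0.13 for Tnfsf10, -0.016, -0.43 and -0.18 for Cflar (mean of probe sets -0.11) and 0.21 for Bid. At day 3 Tnfsf10 was -0.12 on another probe set and -0.23 with their mean, and Tnfrsf1b was 0.0011 with quantile normalization, 0.0046 with the array median added, 0.17 with the mean of probe sets and 0.34 on its second probe set. At day 14 Tnfrsf12a was -0.0036 with array weights and -0.67 on its second probe set, Cflar -0.13 and Bid -0.079 on single probe sets. In the mean effect Tnfsf10 was 0.014 with the array median added, 0.10 with weights and 0.16 without both livers, and Cflar was -0.10 with the mean of probe sets and -0.10, -0.014, -0.21 and -0.21 on single ones. Leaving out each liver moved Tnfsf10 from -0.11 to 0.47, Casp8 from -0.0012 to 0.17 and Bid from -0.54 to 0.039 at day 1, Tnfrsf1b from -0.062 to 0.057 at day 3, Tnfrsf12a from -0.13 to 1.33 at day 14 and Tnfsf10 from -0.10 to 0.09 in the mean effect.

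No detection calls were used here, so the reliability of dim members (Tnfsf10, Mlkl, Tnfrsf12a at day 14) rests on their position above the array median, and 3 livers per group at days 1 and 3 limit what could pass.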
